A study of Mus musculus with 21 samples.

Results

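The control condition of a CRISPR/Cas9 experiment in mouse lymphoid progenitors (LPs) was described here on its own, from the 3 QuantSeq libraries labelled sgCont (sgControl), which are 3 of the 15 QuantSeq libraries and of the 21 samples in the series. A gene was counted as expressed when the mean of its values in these 3 libraries was above 1, and 11664 of 55421 genes (21.0%) met this rule. The cells were an LP line of the C57BL6/J strain that lacks *Ebf1*, a transcription factor needed to enter the B lineage, and they carried Cas9-GFP and sgRNAs against luciferase, a gene that mouse cells do not have. They were kept on OP9 stromal feeder cells with SCF, IL-7 and Flt3L at 10 ng/ml each, and GFP+hNGFR+ cells were sorted 5 days after sgRNA transduction. All 3 libraries share the *Ebf1* deficiency, the retroviral Cas9 and a control sgRNA, and they come from 1 established line, so they are repeated cultures of that line, described as biologically independent, and not separate animals. The series was made to ask which genes depend on the Lmo2 partners Zbtb1 and Cbfa2t3, and the libraries with those genes disrupted were not used here.

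LPs are bone marrow progenitors that are primed for lymphoid fates, keep some myeloid potential and have not yet settled on the B, T or innate lymphoid lineage. IL-7 and Flt3 ligand keep them alive and dividing, Ebf1 with Pax5 opens the B-cell program, and signals through Notch receptors open the T-cell program. A transcriptome of this *Ebf1*-deficient line before any Notch stimulation shows which regulators and receptors the cultured cells transcribed. It need not match that of LPs in bone marrow.

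QuantSeq reads each mRNA near its 3′ end, so a value does not grow with transcript length and levels of different genes are given side by side without dividing by length. The table holds reads of each gene per 1000000 reads of the library (CPM), which its authors named TPM, and the libraries held 1705416 to 1727730 recovered reads. A single read was worth 0.579 to 0.586 CPM, and 3 reads, the smallest amount taken as measurable in a library, were worth 1.74 to 1.76 CPM. This floor covers counting error only, since reads without molecular identifiers are not independent molecules. A gene needed 6 reads in all to pass the rule: *Gm48865* lay just inside it at 1.16 CPM with 0, 6 and 0 reads, and *Lmbr1* just outside at 0.977 CPM with 0, 0 and 5 reads. No read was seen for 40455 genes, and 3302 genes had reads but a mean of 1 CPM or less. Among protein-coding genes, 10158 of 21926 (46.3%) were expressed, 7975 (36.4%) had a mean above 10 CPM, and 10445 (47.6%) had no read. Genes were found in every library at 3 reads or more in 10127 cases, so 1537 of the expressed genes were under the floor in at least 1 library.

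**Figure D1:**
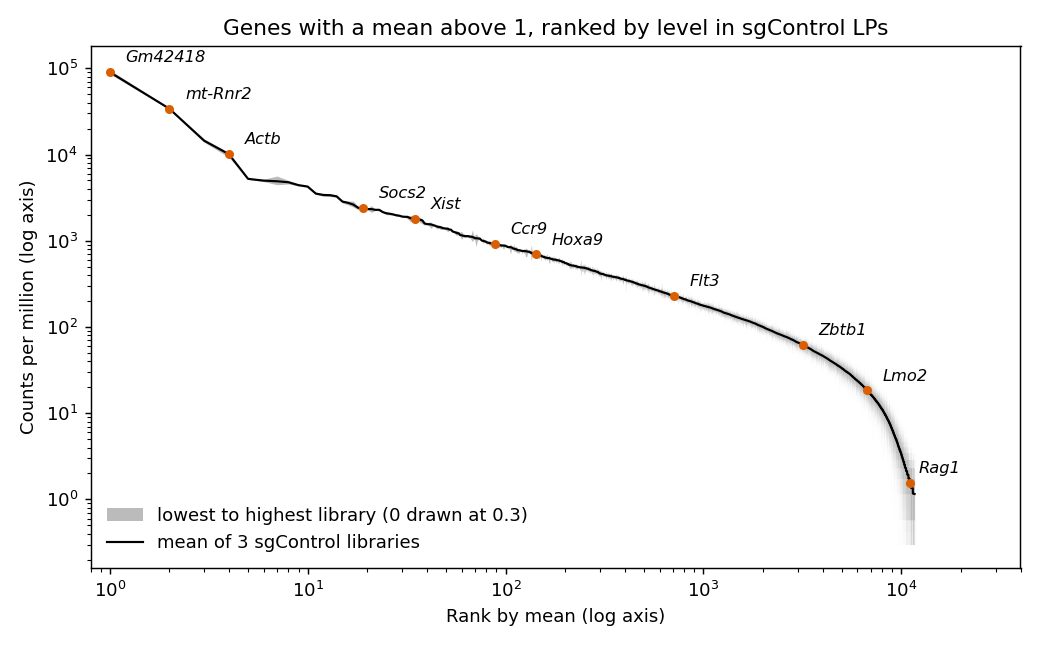
Mean CPM of the 11664 expressed genes against their rank, both on log axes, with the range over the 3 sgControl libraries in grey and named genes as orange points. *Gm42418* stands at the top, 503 genes hold 50% of the reads, and the grey band widens below about 10 CPM.

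The reads were concentrated on few genes. The leading gene took 9.03 ± 0.534% of the reads (SD, n = 3), the leading 10 took 17.75 ± 0.461%, the leading 100 took 31.19 ± 0.421% and the leading 1000 took 61.24 ± 0.408%. The plot of CPM against rank shows this decline. Of the mean total, 503 genes held 50% and 4453 genes held 90%. Nuclear protein-coding genes accounted for 82.2 ± 0.528% of the reads.

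The first gene in rank was *Gm42418*, with 96403, 88258 and 86336 CPM. It is annotated as a lncRNA on chromosome 17 (GRCm38, 39846958 to 39848788, plus strand), and RefSeq lists this name as a synonym of *Rn18s-rs5*, a gene related to 18S ribosomal RNA. The mitochondrial ribosomal RNAs came next, *mt-Rnr2* with 33488, 34672 and 33978 CPM and *mt-Rnr1* with 13889, 15217 and 14265 CPM. These 3 RNAs together made up 13.9 ± 0.464% of the reads, and without them the leading 10 genes held 5.68% of the remainder.

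The leading mRNA was *Actb*, which encodes cytoplasmic actin, with 9273, 10562 and 10464 CPM. It was followed by the chaperone gene *Hsp90ab1* with a mean of 5223 ± 79.7 CPM and *Pabpc1*, the poly(A)-binding protein, with 4979 ± 161 CPM. The other genes among the first 30 were for the most part those of growing cells. They included *Ncl* (3399 ± 117 CPM), which encodes the nucleolar protein nucleolin, *H2afy* (2754 ± 137 CPM), a histone variant, *Serbp1* (2409.8 ± 113 CPM), which binds mRNA and ribosomes, *Top2a* (2148 ± 11.6 CPM), the topoisomerase of dividing cells, *Tubb5* (2057 ± 53.9 CPM), a tubulin, and *Rack1* (1975 ± 63.2 CPM), a ribosomal scaffold. Of the first 30, 11 encoded cytosolic ribosomal proteins, among them *Rplp1* (4251 ± 96.7 CPM), *Rps26* (3522 ± 112 CPM), *Rps14* (3275 ± 90.7 CPM), *Rps20* (2847 ± 96.6 CPM), *Rpl4*, *Rpl32*, *Rps24*, *Rps12* and *Rpl23a* (1909 ± 30.1 CPM). *Socs2* and *Plac8* were the genes in this group with a closer tie to blood cells. *Socs2*, a feedback inhibitor that STAT5 induces, stood at rank 19 with 2283, 2479 and 2466 CPM, and *Plac8*, which encodes a small cysteine-rich protein found in many blood cells, stood at rank 29 with 1923, 1924 and 2013 CPM. The libraries differed by less than 10% for both.

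The 77 cytosolic ribosomal protein genes were all expressed, beside 46.3% of all protein-coding genes, and took 7.55 ± 0.18% of the reads, with a median of 746 CPM. Among the 13 mitochondrial mRNAs the levels were uneven. The subunit genes of respiratory complex I *mt-Nd4* (5624, 4605 and 4466 CPM), *mt-Nd1* (mean 4769.8 ± 231 CPM) and *mt-Nd2* (4414 ± 89.1 CPM) and the cytochrome b gene *mt-Cytb* (3375 ± 131 CPM) were high, whereas *mt-Co2*, *mt-Co3*, *mt-Atp6*, *mt-Atp8* and *mt-Nd4l* had no read in any library. The 5 mitochondrial mRNAs at 0 shared a feature of sequence: every 75-base window in the last 300 bases of each (or the whole of shorter transcripts) had an identical copy elsewhere in GRCm38. This was also true of *mt-Nd3* (10.1 ± 3.79 CPM) and *mt-Co1* (1092 ± 53.1 CPM), while none of the windows of *mt-Nd1*, *mt-Nd4*, *mt-Nd5*, *mt-Nd6* and *mt-Cytb* had one. Outside the mitochondrial chromosome, every window of *Pgk1*, a glycolytic enzyme gene, had a copy, and its mean was 13.0 ± 4.68 CPM. In the same way, 7 of the 77 ribosomal protein genes were of this kind with a median of 102.8 CPM, against 968.5 CPM for the 32 that had no copied window. How reads that match several places were counted is not given in the sources used here, so levels of genes with copied 3′ ends are uncertain and their zeros do not show that they are silent. *Gapdh* (87.5 ± 11.7 CPM, 39.82% of windows copied), *Ppia* (151 ± 16.7 CPM, all windows copied) and *Eef1a1* (954 ± 31.5 CPM, 67.26%) belong to the same group of uncertain levels, as do, among genes named here, *Rpl23a* (98.67% of windows copied), *Hspa8* (57.08%), *Rplp1* (52.65%), *Mki67* (41.15%), *Klf4* (36.28%), *Rack1* (26.99%), *mt-Nd2* (24.34%), *Pim1* (23.45%) and *Rpl32* (21.24%). Not every gene named here was searched for copies. Among those not searched were *Tuba1b*, *Jchain*, *Igfbp4*, *Cox6a2*, *Tap2*, *Gas5* and the lncRNAs ranked below *Gas5*.

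Among lncRNAs, 607 of 9963 were expressed, beside 21.0% of all genes. Below *Gm42418* the leading ones were *Malat1*, a nuclear-retained RNA, with 1669, 1838 and 1961 CPM, *Xist*, the RNA that coats the inactive X chromosome, with 1798, 1812 and 1825 CPM, and *Gas5*, a host of small nucleolar RNAs, with 682, 656 and 673 CPM. They were followed by *Gm26917* (514 ± 23.4 CPM), the imprinted *Kcnq1ot1* (378 ± 32.2 CPM), *Snhg9* (197 ± 11.3 CPM), *Oip5os1* (196 ± 9.32 CPM), *Snhg1* (186 ± 24.6 CPM) and *2410006H16Rik*. Without *Gm42418*, lncRNAs took 1.14 ± 0.0166% of the reads. Of 1562 genes on chromosome Y, 1 was expressed, beside the same 21.0%.

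Many transcription factors of early lymphoid cells were transcribed at high levels. Of 34 progenitor factors listed, 29 were expressed and 26 had a mean above 10 CPM, with a median of 114 CPM among those expressed. The shares of all protein-coding genes were 46.3% and 36.4%. The levels of those expressed ran from *Mef2c* to *Gfi1* at 3.10 ± 0.877 CPM, and 4 listed factors had no read. The plot of lineage factors gives each library's value.

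**Figure D2:**
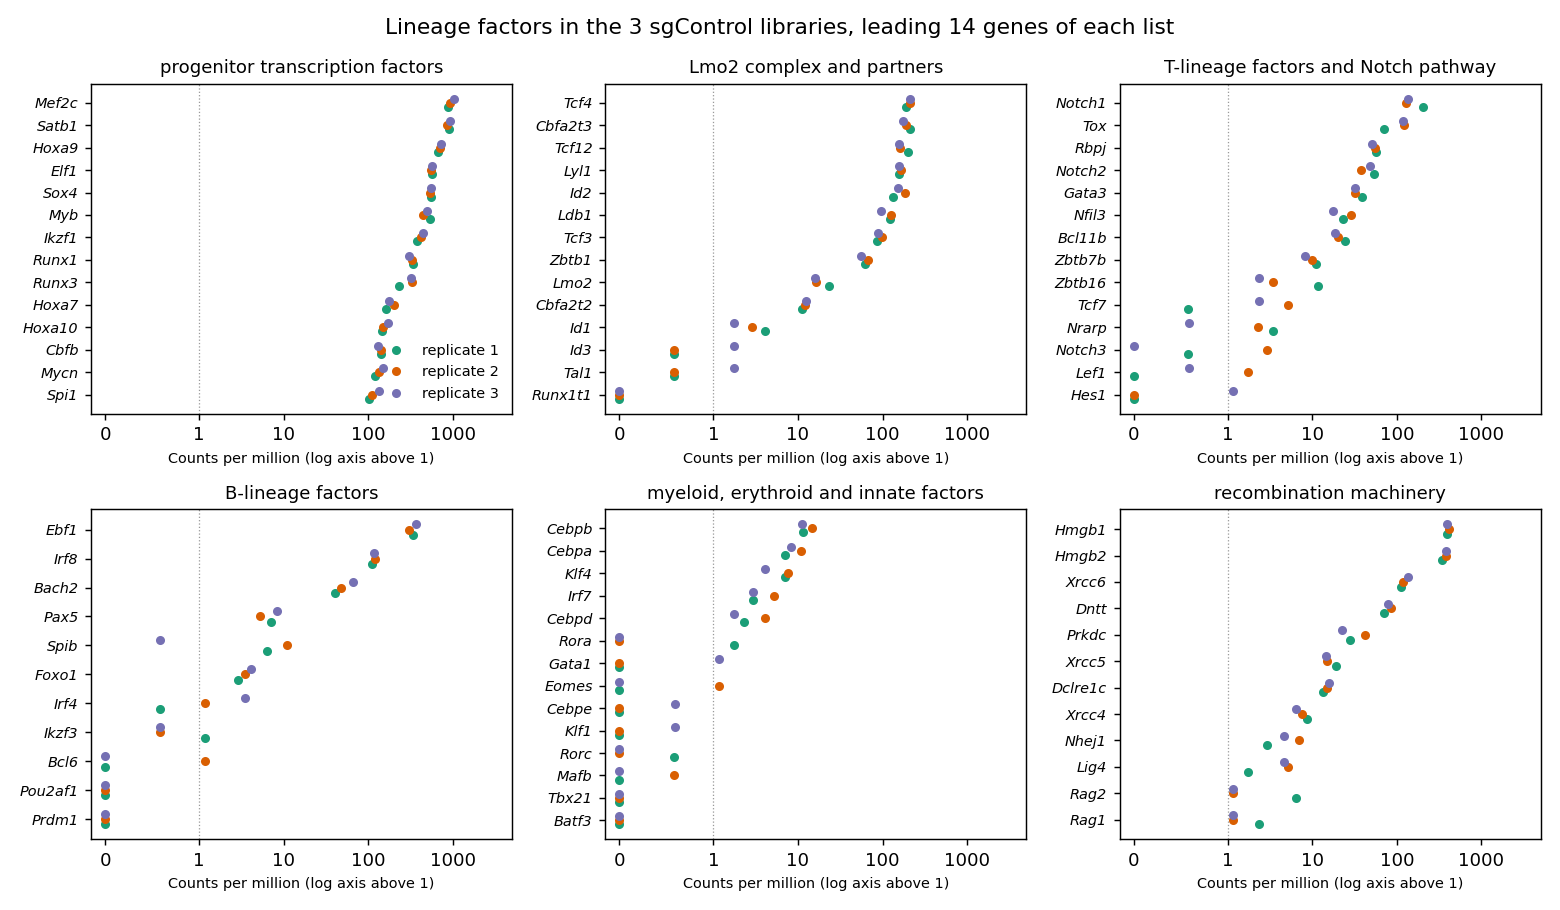
CPM of the leading 14 genes of 6 lists in the 3 sgControl libraries, 1 point per library, on an axis that is linear from 0 to 1 and logarithmic above. The leading progenitor factors all lie above 100 CPM, whereas the T-lineage, B-lineage and myeloid panels run from over 100 or 10 CPM down to 0.

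*Mef2c*, a factor of early lymphoid cells and B cells, led the list with 869.9, 930.1 and 1021 CPM. *Satb1*, a chromatin organiser of lymphoid progenitors, had 887, 839 and 922 CPM. *Hoxa9*, a homeobox gene of stem and progenitor cells, had 670.2, 696 and 716 CPM. The ranges of *Mef2c* and *Satb1* overlapped, and those of *Satb1* and *Hoxa9* did not. The ETS factor *Elf1* (554 ± 7.97 CPM) and *Sox4* (548 ± 7.89 CPM), a factor of early B and T cells, came next. *Myb*, required at many steps of blood formation, had 538, 437 and 488 CPM, and *Ikzf1*, which encodes the lymphoid factor Ikaros, had 375, 419 and 442 CPM. These ranges overlapped too. *Runx1* (320.0 ± 16.0 CPM), *Runx3* (290.2 ± 53.8 CPM) and their partner *Cbfb* (137 ± 7.20 CPM) were high, while *Runx2* had 40.4 ± 13.5 CPM. *Spi1*, which encodes PU.1 and is used in both lymphoid and myeloid progenitors, had 103, 111 and 133 CPM. *Gata2*, *Meis1* and *Hlf*, factors of hematopoietic stem cells, had no read in any library. A count of 0 allows up to 1.76 CPM per library.

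Of 39 Hox genes, 9 were expressed, a lower share than the 46.3% of all protein-coding genes, and 8 of these belong to the HoxA cluster. *Hoxa9* was followed by *Hoxa5* (268, 277 and 371 CPM), *Hoxa7* (163, 201 and 174 CPM) and *Hoxa10* (144, 149 and 169 CPM), then *Hoxa3* (30.8 ± 2.41 CPM). *Hoxa2* (9.68 ± 5.23 CPM), *Hoxa6* (9.32 ± 3.86 CPM) and *Hoxa4* (5.05 ± 3.01 CPM) were low, and the only gene of another cluster, *Hoxc4*, had reads in 1 library (5.81, 0 and 0 CPM).

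Lmo2 is a bridging protein without DNA binding of its own that links basic helix-loop-helix factors to Ldb1 and to corepressors of the ETO family. *Lmo2* itself had 23.2, 16.2 and 15.8 CPM, and 8 of the other 13 genes of this list had a higher mean. *Tcf4*, *Tcf12* and *Tcf3*, the genes of the E proteins, had 204 ± 11.5, 172 ± 24.5 and 91.2 ± 7.44 CPM. *Lyl1*, the helix-loop-helix factor that pairs with them, had 156, 167 and 155 CPM, whereas *Tal1*, a related factor of stem and erythroid cells, had 1, 1 and 3 reads. *Ldb1* had 121, 126 and 95.6 CPM. In the ETO family, *Cbfa2t3* had 209.6, 189 and 172 CPM, *Cbfa2t2* 11.0, 12.2 and 12.3 CPM, and *Runx1t1* no read. *Zbtb1*, the zinc-finger gene that the study connects to Lmo2, had 62.7, 66.6 and 55.7 CPM. Of the inhibitors of E proteins, *Id2* had 134, 183 and 153 CPM, *Id1* 2.91 ± 1.15 CPM and *Id3* 1, 1 and 3 reads. The ranges of *Zbtb1*, *Lmo2* and *Cbfa2t2* did not overlap, so this order held in every library.

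Of the 4 Notch receptor genes, *Notch1* and *Notch2* were well above the floor before any Notch stimulation. *Notch1* had 203, 129 and 136 CPM, with the first library higher than the other two, *Notch2* 54.0, 37.6 and 48.1 CPM, *Notch3* a mean of 1.16 ± 1.53 CPM and *Notch4* 2 reads in all. *Rbpj*, which encodes the DNA-binding partner of the cleaved receptor, had 56.9, 55.6 and 51.6 CPM. Among genes that Notch signals can switch on, *Nrarp* had a mean of 2.13 ± 1.46 CPM, *Hes1* had 2 reads in all, and *Dtx1*, *Heyl* and *Ptcra*, the gene of the pre-T-cell receptor alpha chain, had none, although 46.46% of the 3′ windows of *Ptcra* had a copy elsewhere. Some other genes that Notch signals raise during T-cell development were higher, and *Gata3* and *Bcl11b* are among them. *Tcf7*, another such gene, was low, and its range overlapped that of *Nrarp*. *Tox*, which acts in T and innate lymphoid development, had 69.7, 121 and 119 CPM, *Gata3* 38.3, 31.8 and 31.7 CPM and *Bcl11b* 24.4, 20.3 and 18.8 CPM. *Tcf7*, which encodes the T-lineage factor TCF1, had 0.580, 5.21 and 2.35 CPM, values that rest on 1, 9 and 4 reads. *Lef1* had 0, 3 and 1 reads. In all, 12 of the 18 genes of this list were expressed and 7 had a mean above 10 CPM, the latter close to the 36.4% of all protein-coding genes (46.3% were expressed).

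Of 11 B-lineage factors, 7 were expressed and 3 had a mean above 10 CPM, beside 46.3% and 36.4% of all protein-coding genes. Reads were assigned to *Ebf1* in every library, with 338, 305 and 366 CPM, although the line is *Ebf1*-deficient. QuantSeq reads lie at the 3′ end, and the sources used here do not say which part of the gene is missing in the line, so these values do not check the genotype. *Irf8*, a factor of early B and myeloid cells, had 111, 120.4 and 116 CPM and *Bach2*, a repressor in lymphocytes, 40.7, 48.0 and 66.3 CPM. *Pax5*, the factor that seals B-lineage commitment, had 6.97, 5.21 and 8.21 CPM, *Foxo1* 2.90, 3.47 and 4.10 CPM, and *Pou2af1* and *Prdm1* no read.

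The factors listed as myeloid, erythroid or innate were low. Factors that such lineages share with lymphoid cells, such as *Spi1*, *Irf8* and *Tox*, were counted in other lists and were higher. Of 14, 5 were expressed (the share of all protein-coding genes was 46.3%), and the leading one, *Cebpb*, had 11.6, 14.5 and 11.1 CPM. *Cebpa*, which directs granulocyte and monocyte development, had 6.97, 11.0 and 8.21 CPM, *Klf4* 6.20 ± 1.84 CPM and *Irf7* 3.68 ± 1.32 CPM. *Gata1* had 2 reads in all, and *Tbx21* and *Batf3* had none.

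Markers of lymphoid progenitors were all expressed, 14 of 14, with a median of 127 CPM. Markers of the mature lineages had counts of 10 of 16 for T cells, 2 of 11 for B cells, 3 of 12 for natural killer and innate lymphoid cells, 7 of 14 for myeloid cells and 1 of 13 for erythroid cells, megakaryocytes and mast cells. With a mean above 10 CPM the counts were 12 for progenitor markers, 6 for T cells, 0 for B cells, 0 for natural killer and innate lymphoid cells, 2 for myeloid cells and 1 for erythroid cells, megakaryocytes and mast cells, beside 36.4% of all protein-coding genes. The counts above 1 CPM are set beside the 46.3% of protein-coding genes that were expressed, and were not tested against each other. The plot of receptors and markers shows the values.

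**Figure D3:**
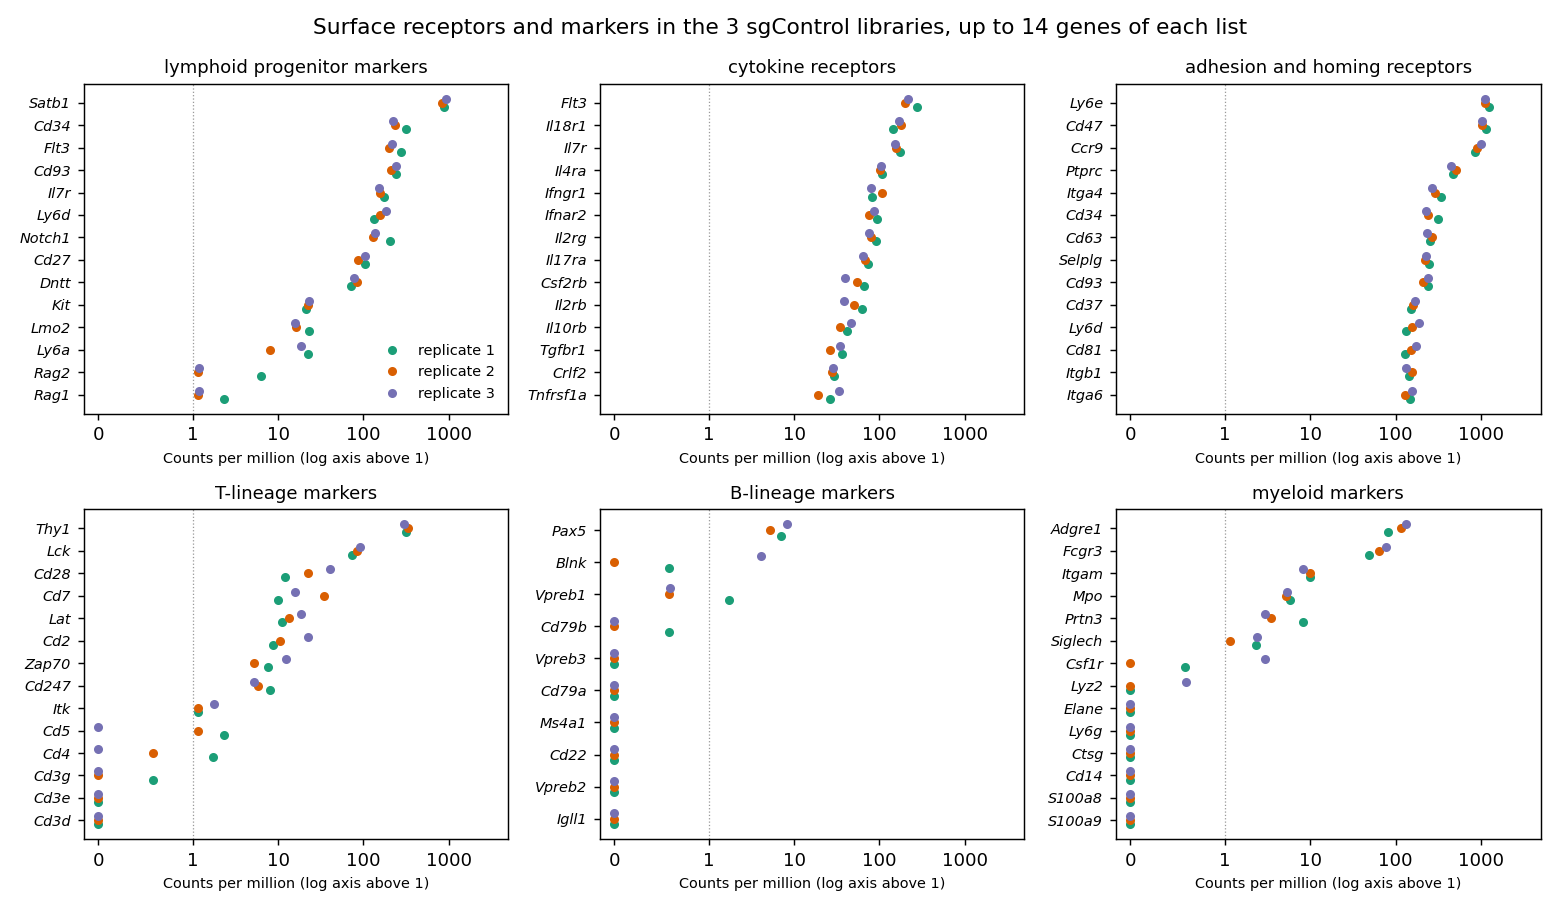
CPM of up to 14 genes of each of 6 lists of surface receptors and markers, in order of level, in the 3 sgControl libraries, 1 point per library, on an axis that is linear from 0 to 1 and logarithmic above. The cytokine and adhesion receptors drawn lie above 10 CPM, whereas 8 of the 10 B-lineage markers drawn and 7 of the 14 myeloid markers have a mean of 1 CPM or less.

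*Cd34*, a sialomucin of progenitor cells, had 313, 237 and 225 CPM, and *Flt3*, the receptor for Flt3 ligand, had 276, 199.7 and 219 CPM. *Il7r*, the IL-7 receptor alpha chain, had 175, 155 and 154 CPM and *Kit*, the receptor for SCF, had 21.5, 22.6 and 22.9 CPM. The receptors for all 3 cytokines in the medium were thus transcribed, with *Kit* lower than both others in every library. *Ly6d*, a surface protein of B-biased progenitors, had 134, 155 and 186 CPM, *Cd93* 229.5 ± 16.9 CPM and *Cd27* 98.0 ± 9.68 CPM. *Dntt*, which encodes terminal deoxynucleotidyl transferase, had 71.4, 85.1 and 78.0 CPM, whereas the recombinase genes *Rag1* (2.32, 1.16 and 1.17 CPM) and *Rag2* (6.39, 1.16 and 1.17 CPM) were low, and under the floor in all but the first library. All 12 recombination genes listed passed 1 CPM and 7 passed 10 CPM (46.3% and 36.4% of all protein-coding genes), led by *Hmgb1* (401 ± 8.56 CPM) and *Hmgb2* (367 ± 24.7 CPM), chromatin proteins that assist the recombinase, and by *Xrcc6* (121 ± 11.7 CPM), the gene of the repair protein Ku70.

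To show the promoters of genes that these results turn on, the 250 bases before the RefSeq start of 6 of them (GRCm38.p6) are given below, 5′ to 3′ on the gene's strand, with each CG pair in capitals. *Myb* (chr10:21160985-21161234, minus strand) held 40 CG pairs and *Flt3* (chr5:147400490-147400739, minus) 13, whereas *Il7r* (chr15:9529877-9530126, minus) held 1, *Ccr9* (chr9:123766961-123767210, plus) 3, *Dntt* (chr19:41029025-41029274, plus) 2, and *Lyz2* (chr10:117282273-117282522, minus), a myeloid gene with 1 read in the 3 libraries, 1.
Myb: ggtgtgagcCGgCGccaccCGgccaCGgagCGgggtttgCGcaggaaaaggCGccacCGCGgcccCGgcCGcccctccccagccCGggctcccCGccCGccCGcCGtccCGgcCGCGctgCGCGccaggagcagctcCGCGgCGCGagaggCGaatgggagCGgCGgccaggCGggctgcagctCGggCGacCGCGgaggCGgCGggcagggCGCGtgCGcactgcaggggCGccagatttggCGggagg
Flt3: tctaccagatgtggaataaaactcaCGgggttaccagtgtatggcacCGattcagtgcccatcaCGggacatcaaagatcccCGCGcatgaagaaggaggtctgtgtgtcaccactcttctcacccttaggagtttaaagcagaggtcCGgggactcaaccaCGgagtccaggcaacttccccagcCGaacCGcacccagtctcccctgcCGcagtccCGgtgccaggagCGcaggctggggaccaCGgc
Il7r: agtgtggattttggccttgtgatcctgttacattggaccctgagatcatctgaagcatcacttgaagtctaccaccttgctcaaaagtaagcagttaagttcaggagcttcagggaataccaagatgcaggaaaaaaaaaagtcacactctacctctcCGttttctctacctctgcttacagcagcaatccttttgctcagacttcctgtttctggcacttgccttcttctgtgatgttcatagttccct
Ccr9: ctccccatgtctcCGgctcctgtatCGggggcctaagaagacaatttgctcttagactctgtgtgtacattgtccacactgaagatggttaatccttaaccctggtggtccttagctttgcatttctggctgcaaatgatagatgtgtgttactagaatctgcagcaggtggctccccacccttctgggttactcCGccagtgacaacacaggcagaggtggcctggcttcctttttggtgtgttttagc
Dntt: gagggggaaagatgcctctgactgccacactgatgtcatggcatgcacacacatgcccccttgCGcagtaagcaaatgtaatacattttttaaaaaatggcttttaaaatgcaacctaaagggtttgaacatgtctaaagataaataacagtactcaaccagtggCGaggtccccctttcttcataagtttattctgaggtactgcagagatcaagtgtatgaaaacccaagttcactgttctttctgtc
Lyz2: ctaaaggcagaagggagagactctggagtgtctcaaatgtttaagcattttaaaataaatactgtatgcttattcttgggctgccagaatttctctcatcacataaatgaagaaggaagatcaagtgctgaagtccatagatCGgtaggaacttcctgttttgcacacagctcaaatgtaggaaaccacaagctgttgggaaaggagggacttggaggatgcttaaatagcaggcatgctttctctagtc

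CG pairs are where mammalian DNA is methylated, and promoters rich in them tend to serve genes used in many tissues. A promoter was matched by symbol for 16615 of 21890 protein-coding symbols. The median number of CG pairs was 3 in the 7483 promoters of genes without a read, 9 for means above 0 up to 1 CPM, 13 for 1 to 10 CPM, 17 for 10 to 100 CPM, 19 for 100 to 1000 CPM and 16 for the 43 promoters of genes above 1000 CPM. At least 10 CG pairs were present in 24% of promoters in the first class and 85.3% in the class of 100 to 1000 CPM, against 52.1% of all. By list, the median was 19 for 29 cell cycle genes and 14 for 28 progenitor factors, 11 for 28 cytokine receptors, 5.5 for 24 adhesion and homing receptors and 5 for 10 progenitor markers, beside 10 for all promoters. Single receptors lay on both sides of the median of their class of level, with *Il7r* and *Ccr9* below it and *Cd47* (30 CG pairs) and *Itgb1* (21) above it.

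Of 35 cytokine receptor genes, 29 were expressed and 23 had a mean above 10 CPM (46.3% and 36.4% of all protein-coding genes). Next to *Flt3* and *Il7r* stood *Il18r1*, a chain of the IL-18 receptor, with 144, 177 and 167 CPM, and *Il4ra*, the IL-4 receptor alpha chain, with 106, 102 and 103 CPM. The common gamma chain *Il2rg*, which pairs with Il7r, had 91.8, 79.9 and 75.6 CPM, and *Crlf2*, the receptor chain for TSLP, 29.0, 27.8 and 28.7 CPM. The interferon receptor chains *Ifngr1* (90.2 ± 15.7 CPM) and *Ifnar2* (84.8 ± 9.50 CPM) were also present. *Csf1r*, the receptor of macrophage progenitors, had 0.580, 0 and 2.93 CPM, and *Csf3r*, *Epor* and *Il9r* had no read, with 40.71% of the 3′ windows of *Csf3r* copied elsewhere. The ranges of 25 of 28 neighbouring pairs in this order overlapped, so most neighbours could not be told apart.

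Of 22 genes for signalling below these receptors, 21 were expressed (46.3% of all protein-coding genes), and *Stat4* had no read. After *Socs2* came *Bcl2*, an inhibitor of cell death, with 706, 832 and 797 CPM, *Pim1*, a survival kinase that STAT5 induces, with 621, 549.9 and 549 CPM, and *Jak1*, the kinase bound to many cytokine receptors, with 235, 237 and 259 CPM. The kinase gene *Jak3*, whose product binds the common gamma chain, had 19.2 ± 1.85 CPM, and *Stat5a* and *Stat5b*, the genes of the factors that IL-7 activates, had 23.7 ± 3.15 and 34.4 ± 4.84 CPM. *Cish*, another feedback inhibitor, had 38.9, 68.3 and 53.9 CPM.

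Adhesion and homing receptors were nearly all expressed, 40 of 42, beside 46.3% of all protein-coding genes. *Ly6e*, a small surface protein, led with 1253, 1120.0 and 1119 CPM, followed by *Cd47*, a signal against engulfment, with 1161, 1023 and 1034 CPM. *Ccr9*, the chemokine receptor that draws progenitors to the thymus, had 855, 909.9 and 1003 CPM. *Ptprc*, which encodes CD45, had 474, 513 and 441 CPM and the integrin chain *Itga4* 344, 287 and 265 CPM. *Selplg*, the P-selectin ligand, had 232 ± 13.0 CPM. *Ccr7* had 19.2, 18.5 and 17.6 CPM, *Cxcr4*, the receptor for the marrow chemokine CXCL12, 44.1, 46.9 and 42.8 CPM, and *Slamf1* no read.

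Among T-lineage markers, *Thy1* stood at 313, 332 and 299.6 CPM and the kinase gene *Lck* at 73.2, 83.9 and 92.1 CPM. *Cd28* (12.2, 22.6 and 41.0 CPM) and *Cd7* (9.87, 34.7 and 15.8 CPM) were lowest in the first library, and *Lat*, an adaptor of the T-cell receptor, had 14.4 ± 3.97 CPM. The CD3 genes were at or near 0, *Cd3g* with 1 read and *Cd3e* and *Cd3d* with none, as were *Cd8a* and *Cd8b1*, the latter with 26.99% of its 3′ windows copied. The B-lineage markers *Cd79a*, *Igll1*, *Vpreb2*, *Vpreb3*, *Ms4a1* and *Cd22* had no read, *Cd79b* had 1 read, *Vpreb1* had 3, 1 and 1, and *Blnk* had 0.580, 0 and 4.10 CPM. Besides *Pax5*, no B-lineage marker reached the floor in all libraries.

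In the myeloid list, *Adgre1*, which encodes a surface receptor of macrophages, had 82.5, 115 and 134 CPM and the Fc receptor gene *Fcgr3* 49.4, 63.7 and 76.2 CPM, with the first library lowest in both. *Itgam* (9.31 ± 0.951 CPM) and *Mpo* (5.43 ± 0.327 CPM) were low. *Lyz2*, whose promoter is given above, had 1 read, and *Cd14*, *Elane*, *Ctsg*, *S100a8*, *S100a9* and *Ly6g* had none. Natural killer and innate lymphoid markers were led by *Nkg7* (6.39, 6.37 and 9.97 CPM), *Prf1* (5.81, 5.79 and 4.69 CPM), *Klrd1* (1.16, 2.89 and 2.35 CPM) and *Il17rb* (0, 3 and 0 reads), and *Ncr1*, *Gzmb* and *Tbx21* had no read. The hemoglobin gene *Hbb-bt* was the 1 expressed member of the erythroid, megakaryocyte and mast list, with 148, 128 and 114 CPM, while *Hbb-bs*, *Hba-a1*, *Hba-a2*, *Pf4*, *Epor*, *Cpa3* and *Mcpt8* had no read and *Gata1*, *Gp9* and *Klf1* had 2, 2 and 1 in all. *Hbb-bt* and *Hbb-bs* share 12.39% of their 3′ windows with another locus, and *Hba-a1* and *Hba-a2* 34.96%. The zeros of *Hba-a1* and *Hba-a2* are therefore uncertain, and that of *Hbb-bs* less so, since most of its windows had no copy.

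None of 12 stromal markers passed 1 CPM, beside 46.3% of all protein-coding genes. *Fn1* had 2, 0 and 3 reads, *Sparc*, *Acta2*, *Col1a2* and *Thbs1* 1 read each, and *Col1a1*, *Col3a1*, *Postn*, *Bgn*, *Dcn*, *Kitl* and *Cxcl12* none. Their summed level was 2.32, 0 and 2.93 CPM in the 3 libraries, so these markers of feeder cells were at or near the floor in the sorted cells.

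Of 21 antigen receptor constant genes, 8 were expressed, beside 21.0% of all genes, and 11 had no read. *Tcrg-C2* had 858, 928 and 841 CPM, *Tcrg-C1* 494, 531 and 419 CPM, *Tcrg-C4* 383, 380.3 and 353 CPM and *Trdc*, the constant gene of the delta chain, 381, 388 and 388 CPM. *Ighm*, the constant gene of IgM, had 246, 398 and 409.9 CPM, lowest in the first library. *Trac*, the constant gene of the alpha chain, had 23.8, 28.9 and 27.0 CPM, and the beta chain genes *Trbc1* and *Trbc2* had 5 and 0 reads. Of 362 variable genes, 2 were expressed (21.0% of all genes), *Ighv1-23* (2.90, 5.21 and 9.38 CPM) and *Tcrg-V1* (6.97, 5.21 and 2.35 CPM), and together the variable genes summed to 13.8 ± 2.44 CPM, against 2497 ± 141 CPM for the 21 constant genes. Since QuantSeq reads the 3′ end, a rearranged mRNA is read in its constant gene, so this contrast does not show how far variable genes were transcribed. Of the windows at the 3′ ends, 29.2% of *Tcrg-C1* and 13.27% of *Tcrg-C2* had a copy, so the split between these genes is uncertain. *Jchain*, which encodes the chain that joins IgM and IgA and lies apart from the receptor loci, had 853, 1159 and 1195 CPM.

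The cells carried the transcripts of dividing cells. Of 37 cell cycle and replication genes, 36 had a mean above 10 CPM, beside 36.4% of all protein-coding genes. *Top2a* had 2143, 2161 and 2138 CPM, *Mki67*, a marker of cycling cells, 587, 679.5 and 548 CPM, and *Mcm7*, a subunit of the replicative helicase, 893, 883 and 872 CPM. Of the D cyclins, *Ccnd2* had 1123, 1076 and 1191 CPM and *Ccnd3* 569.7, 449 and 455 CPM, while *Ccnd1* had 5 reads in 1 library, and *Cdk6*, their kinase partner in blood cells, had 1016, 791 and 917 CPM. The inhibitor genes *Cdkn1a* (508, 486 and 478 CPM), *Cdkn2a* (48.2, 43.4 and 60.4 CPM) and *Cdkn1b* (49.9, 51.5 and 46.9 CPM) were transcribed as well.

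Of 25 immediate early and stress genes, 22 were expressed, beside 46.3% of all protein-coding genes. After *Hsp90ab1* came *Hspa5*, the chaperone of the endoplasmic reticulum, with 1291, 1147 and 1038 CPM, *Hsp90aa1* with 1031 ± 10.2 CPM and *Hspa8* with 463 ± 49.9 CPM. Genes that rise quickly when cells are handled were uneven. *Fos* had 7.55, 3.47 and 2.35 CPM, *Egr1* 4.07, 13.3 and 4.69 CPM, *Dusp1* 4.07, 5.21 and 7.04 CPM and *Jun* 27.3, 22.0 and 26.4 CPM, *Ier2*, *Ier3* and *Junb* had means of 22.6, 33.0 and 37.6 CPM, *Jund* had 333, 461 and 447 CPM, and *Atf3*, *Egr2* and *Hspa1a* had no read. All 12 housekeeping genes were expressed (46.3% of all protein-coding genes), led by *Actb*, *B2m* (1459.9 ± 81.7 CPM), *Eef1a1* and *Rplp0* (948 ± 34.2 CPM). Of 67 replication-dependent histone genes, whose mRNAs mostly end without a poly(A) tail, 53 were expressed, with a median of 8.94 CPM, beside 46.3% of all protein-coding genes, and *Hist1h1e* led (282 ± 29.0 CPM). All 3′ windows had a copy in 10 of the 67, 6 of which had no read, and some windows had one in 33, so these levels are uncertain as well.

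Pearson's r of log2(CPM + 1) over the expressed genes was 0.9538 to 0.9566 for the 3 pairs, a description across genes, which are not independent replicates. Among 8207 genes with a mean above 10 CPM, 2.07% to 2.8% differed by more than 2-fold between 2 libraries on the log2(CPM + 1) scale. The biological coefficient of variation, the spread beyond counting noise that edgeR estimates for all genes at once, was 0.115, and 0.26 as DESeq2's median over genes.

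The spread of each gene was set against counting noise by its index of dispersion, which is the chi-square of its recovered reads over the libraries divided by the degrees of freedom and is 1 on average when only counting noise is present. An index above 3 was found for 3218 of 11664 expressed genes (27.6%), a share that includes some genes above 3 through counting noise alone. The index also does not separate spread between cultures from repeated reads of the same molecule. The share was 24.5% for genes at 1 to 3 CPM, 32.7% at 100 to 300 CPM and 64.5% above 1000 CPM. The median coefficient of variation (CV) was 75.4% in the lowest of these classes and 3.86% in the highest. Counting noise, taken as the inverse square root of a gene's mean reads per library, had medians of 57.7% and 1.88% there. That is the CV expected over many libraries, and a CV from 3 libraries tends to be lower under counting noise alone.

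**Figure D4:**
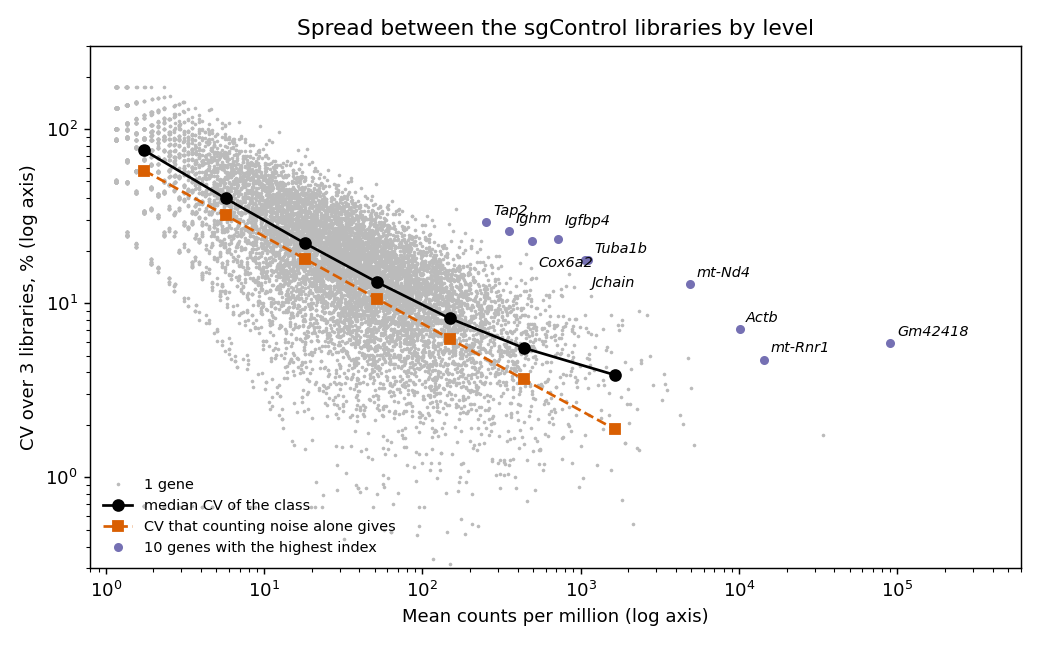
CV over the 3 sgControl libraries against mean CPM for the expressed genes (grey), both on log axes. Lines give the median of 7 classes of level (black) and the CV expected from counting noise over many libraries (orange). Purple points are the 10 genes with the highest index of dispersion among those above 50 CPM. The black line lies above the orange one in every class, and the distance on the log axis is greatest for genes above 1000 CPM.

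The 10 genes with the highest index among the 3763 with a mean above 50 CPM were *Gm42418*, *mt-Nd4*, *Actb*, *Igfbp4*, *Tuba1b*, *Jchain*, *mt-Rnr1*, *Cox6a2*, *Ighm* and *Tap2*. For *Gm42418*, *Actb* and *mt-Rnr1* the highest library was 1.1 to 1.14 times the lowest, since the index grows with the number of reads. For the other 7 this ratio was 1.26 to 1.7. *Igfbp4*, which encodes a binding protein for insulin-like growth factors, had 906, 579 and 671 CPM, *Cox6a2*, a subunit of cytochrome c oxidase known from muscle, 609, 385 and 478 CPM, and *Tap2*, the peptide transporter of antigen presentation, 339, 223 and 199 CPM. *Tuba1b*, a tubulin, had 1333, 1011 and 981 CPM. In these 4 the first library was highest, and in *Jchain* and *Ighm* it was lowest.

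In some lymphoid genes, too, the first library was the most distant. *Notch1*, *Cd34* and *Flt3* were highest there and *Tox* and *Runx3* (228, 324 and 318 CPM) lowest, each with an index above 3. Among the 2347 genes with a mean above 10 CPM and an index above 3, the first library was furthest from the others for 878, the second for 676 and the third for 793. Of the expressed progenitor factors, 14 of 29 had an index above 3, of the progenitor markers 7 of 14, and of the recombination genes 2 of 12, beside 27.6% of all expressed genes. Lists of different level are not comparable in this share.

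ChIP-seq peaks of Zbtb1 and Cbfa2t3 from the same line without Notch stimulation gave a readout that the choice of genes did not use. The authors deposited the peaks reproducible in both replicates, 5898 for Zbtb1 and 6077 for Cbfa2t3, and annotated 1756 and 773 of them as lying at a promoter. Such a peak was found at 13.8% of the 10158 expressed protein-coding genes for Zbtb1 and at 5.67% for Cbfa2t3, and at 0.943% and 0.527% of the 11768 with a mean of 1 CPM or less. By level, the share with a Zbtb1 peak was 0.622% without reads, 9.07% at 1 to 10 CPM, 14.2% at 10 to 100 CPM, 18.1% at 100 to 1000 CPM and 11.3% of the 71 genes above 1000 CPM. For Cbfa2t3 the shares were 0.393%, 4.08%, 5.33%, 8.41% and 9.86%, but with a peak score of at least 30 they were 0.211%, 2.06%, 2.05%, 3.1% and 2.82%, so the order of the classes above 1 CPM changed.

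**Figure D5:**
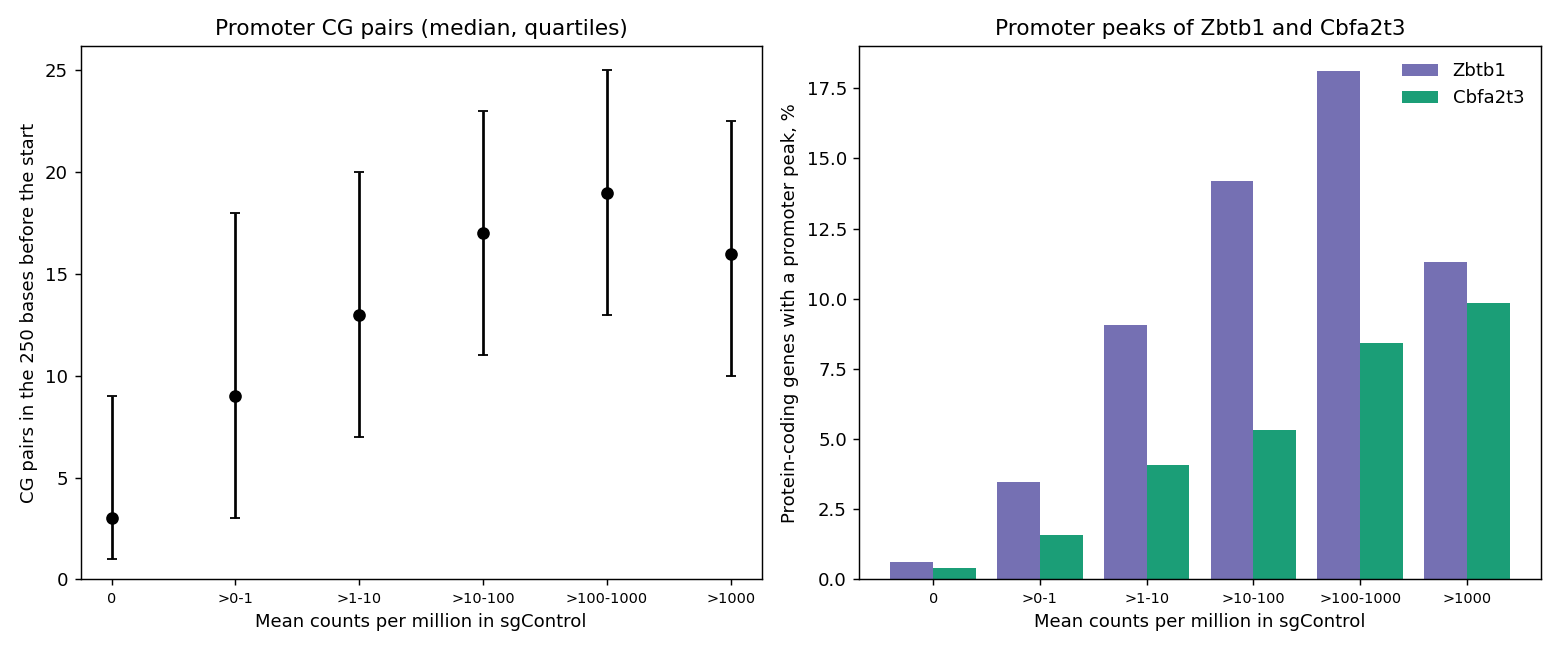
Left, number of CG pairs in the 250 bases before the start (median as a point, quartiles as bars) and right, percent of protein-coding genes with a promoter peak of Zbtb1 (purple) or Cbfa2t3 (green), both for 6 classes of mean CPM in sgControl. Both are lowest for genes at 0, and for CG pairs and Zbtb1 the class at 100 to 1000 CPM is the highest (19 CG pairs, 18.1%).

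In the lists, a Zbtb1 promoter peak was annotated to 8 of 22 cytokine signalling genes (among them *Socs2*, *Bcl2*, *Pim1*, *Mcl1*, *Cish*, *Sh2b3* and *Jak2*) and to 7 of 34 progenitor factors (*Satb1*, *Myb*, *Ikzf1*, *Runx1*, *Runx2*, *Runx3* and *Nfe2*), beside 13.8% of expressed protein-coding genes. Of the 18 genes of the T-lineage and Notch list, 2 (11.1%) had one, *Notch1* and *Notch2*, and none had a Cbfa2t3 promoter peak. Peaks away from promoters were not counted here. The authors reported such a site upstream of *Tcf7*, shared by Lmo2, Zbtb1 and Cbfa2t3. Of the 14 genes around Lmo2, 3 had a Zbtb1 promoter peak (*Cbfa2t2*, *Tcf3* and *Zbtb1* itself). A Cbfa2t3 promoter peak was annotated to 5 of 22 signalling genes (*Socs1*, *Socs2*, *Socs3*, *Cish* and *Stat3*) and to 3 of 14 genes around Lmo2 (*Lyl1*, *Tcf12* and *Tcf3*), beside 5.67%. Of 35 cytokine receptor genes, 8 had a Zbtb1 and 3 a Cbfa2t3 promoter peak, but of 42 adhesion and homing receptors, nearly all expressed, 2 (4.76%) and 1 (2.38%). No promoter peak of either factor was annotated to the 11 B-lineage factors, 7 of them expressed, beside 13.8% and 5.67% of expressed protein-coding genes. None was annotated to the markers of B cells (11), natural killer and innate lymphoid cells (12), erythroid, megakaryocyte and mast cells (13) and stroma (12), most of which were not expressed, beside 0.943% and 0.527% of protein-coding genes at 1 CPM or less. Of the 16 T-lineage markers, 10 of them expressed, 2 (12.5%) had a Zbtb1 and 3 (18.8%) a Cbfa2t3 promoter peak. For the 14 myeloid markers the numbers were 0 and 1, and for the 14 myeloid, erythroid and innate factors 2 and 1. These genes were chosen for their roles and differ in level, so the counts describe the lists only.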

How the data were processed

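RNA of the sgControl LPs (500 ng) was sequenced by QuantSeq FWD as 75-nt single reads. The authors trimmed reads with fastp, mapped them to mm10 with STAR and deposited CPM values, read counts scaled to the same total in every library and labelled TPM. The counter and annotation are not given in the sources used here. Steps of 1 read per library gave whole reads (within 0.1 of a read) for 99.98% of the values above 0, and these reads were used for the counts. The 1 line that names no gene was dropped. The columns of the authors' own comparisons, p-values and log2 fold changes against the control, and the libraries with disrupted genes were not used. For ChIP-seq, mapped with Bowtie 1.1.1, the authors deposited HOMER peaks reproducible in both replicates with a peak score of at least 15, annotated to a nearest gene, and a promoter peak was one that this annotation puts there. That build is mm10, and the gene models used were GENCODE vM21 and RefSeq.

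No group was compared with another, so no test was run. Genes were ranked by the mean of the 3 libraries, and dispersion was estimated with edgeR 4.0.16 (TMM, intercept only) in R 4.3.3, with DESeq2 1.42.0 as the alternative. The index and edgeR steps were tested on simulated data. Copies of 3′ ends were searched with BLAST+ 2.17.0. Python 3.11.15 with pandas 2.3.3 and numpy 2.4.6 was used. The 19 written gene lists (343 genes) and the rule on members were chosen with earlier results of these data known, and the sets by name or type after the values were seen. Named were the 30 genes with the highest mean, list members with the leading 4 of each and up to 10 at 0, the 10 genes with the highest index above 50 CPM and the 10 leading lncRNAs; other genes named were chosen after their values were seen. Some genes that this rule names are not reported here.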

Additional observations from a re-analysis of the deposited data

How the results depend on the processing

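The number of expressed genes stayed within 1.5 times of 11664 under every alternative run: a mean above 10 CPM, 3 reads in every library, TMM, DESeq2 size factors, protein-coding genes only, leaving out a library, and, added after seeing the data, a total without *Gm42418* and the mitochondrial rRNAs. The share of the leading 10 genes, 17.75%, was 14.02% without the mitochondrial chromosome, 30.72% with values divided by gene length and 5.682% without *Gm42418* and the mitochondrial rRNAs; each follows from the change of total or scale. The mean r of 0.9552 was 0.9052 with a pseudocount of 0.1, 0.9649 over all genes above 0, 0.9655 above 10 CPM, and 0.9538 to 0.9566 leaving out a library. The biological coefficient of variation was 0.115 with edgeR and 0.26 as DESeq2's median over genes (the cause was not tested), and 0.103 to 0.124 leaving out a library. Promoter peaks with a score of at least 30 were found at 7.49% of expressed protein-coding genes for Zbtb1 and 2.25% for Cbfa2t3, since fewer peaks are counted. Of 95 recounts of the 19 lists, 85 stayed within 1.5 times, 9 were lower under a mean above 10 CPM or 3 reads in every library, and 1, the stromal markers without replicate 2, went from 0 to 1. No paired analysis was possible because a single group was described and no test was made. At this depth, means under about 10 CPM rest on few reads, and a gene at 0 in a library may be transcribed there below 1.76 CPM.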
